A study of Mus musculus with 4 samples.

Results

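Endothelial cells line the vessels of the hippocampus, and 42 genes of these cells, of their adhesion molecules and of the blood-brain barrier are described here, chosen by gene symbol from 22609 genes in the count tables. All 42 symbols were present, and 40 had enough reads to be tested; the leukocyte adhesion genes Sele and Selp did not. RNA sequencing was done on hippocampus of ovariectomized female mice after global cerebral ischemia, in which both common carotid arteries were clipped for 20 min under isoflurane and reperfused for 24 h; ovariectomy preceded the clipping by 1 week. The 2 GFAP-ARO-KO libraries came from mice whose astrocytes lose loxP-flanked Cyp19a1, the gene of aromatase, through Cre driven by the Gfap promoter. The 2 FLOX-control libraries came from mice that carry the floxed gene and keep aromatase. All 4 libraries thus share ovariectomy, anesthesia and ischemia, there is no sham group, and neither the age of the mice nor whether tissue was pooled is given in the sources used here. Whole hippocampus was sequenced, not isolated vessels, so fewer endothelial cells and less RNA per cell cannot be told apart.

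In brain, endothelial cells are sealed to each other by tight junctions and let few molecules through by vesicles. They take up glucose, amino acids, lactate and lipids through dedicated carriers and pump drugs and toxins back into the blood with ABC transporters. Mural cells and astrocyte endfeet surround the vessel and help to maintain the barrier. After ischemia, endothelium can display selectins and cell adhesion molecules that bind leukocytes.

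The GFAP-ARO-KO libraries held 34878375 and 27930696 reads in genes and the FLOX-control libraries 33495548 and 33235564. Cyp19a1 itself gave 1 and 9 reads in the GFAP-ARO-KO libraries, against 3 and 2 reads in the FLOX-control libraries, too few to check the genotype labels. Of 12 defining endothelial markers, all were detected, and their summed level was 186 and 236 CPM (read counts scaled to library size with TMM factors) in GFAP-ARO-KO, against 206 and 212 CPM in FLOX-control. Endothelial RNA was thus present in each library, and the groups overlapped in this sum. The markers were Flt1, Kdr and Tek with the members Pecam1, Cldn5, Cdh5, Tie1, Esam, Emcn, Eng, Egfl7 and Icam2. The sum is therefore not independent of the results below, where Pecam1 rose and Flt1 fell.

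The second GFAP-ARO-KO library stood apart in tissue that borders or wraps vessels. The summed level of 12 genes of meninges and fibroblasts was 136 CPM in the first and 537 CPM in the second GFAP-ARO-KO library, against 121 and 166 CPM in FLOX-control. Likewise 15 genes of mural cells, which are pericytes and smooth muscle, summed to 194 and 476 CPM in GFAP-ARO-KO, against 168 and 185 CPM in FLOX-control. All of these genes were detected, and of the mural list 1 rose, 0 fell and 14 did not pass, with 0 of 12 passing in the meningeal list. Over all tested genes 9.39% rose and 11% fell, the background for the marker counts of each cell type. The mural list had a median log2 fold change of 0.49, or 0.72 without the first GFAP-ARO-KO library and 0.32 without the second. For the meningeal list these medians were 1.80, 2.68 and -0.23. Without the first or the second control library they were 0.442 and 0.555 for mural genes, and 1.67 and 1.65 for meningeal genes. Markers of microglia summed to 288 and 302 CPM in GFAP-ARO-KO, against 547 and 621 CPM in FLOX-control, and 11 of 12 fell. Markers of oligodendrocytes summed to 3518 and 3805 CPM in GFAP-ARO-KO, against 4319 and 4066 CPM in FLOX-control, and 4 of 8 fell. Those of astrocytes summed to 4432 and 4809 CPM in GFAP-ARO-KO, against 4818 and 5110 CPM in FLOX-control, and of 9 tested 1 rose and 2 fell. Neuronal markers summed to 11530 and 11830 CPM in GFAP-ARO-KO, against 12240 and 12860 CPM in FLOX-control, and of 8 tested 0 rose and 1 fell. Of 5 red cell genes Hbb-b1, Hbb-b2, Hba-a1 and Hba-a2, globin genes with near copies, were listed at 0 in all libraries, so the red cell sum of at most 2.45 CPM rests on Alas2 alone and the amount of blood is uncertain. The part of other cell types in the results on vascular genes was not tested.

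**Figure D1:**
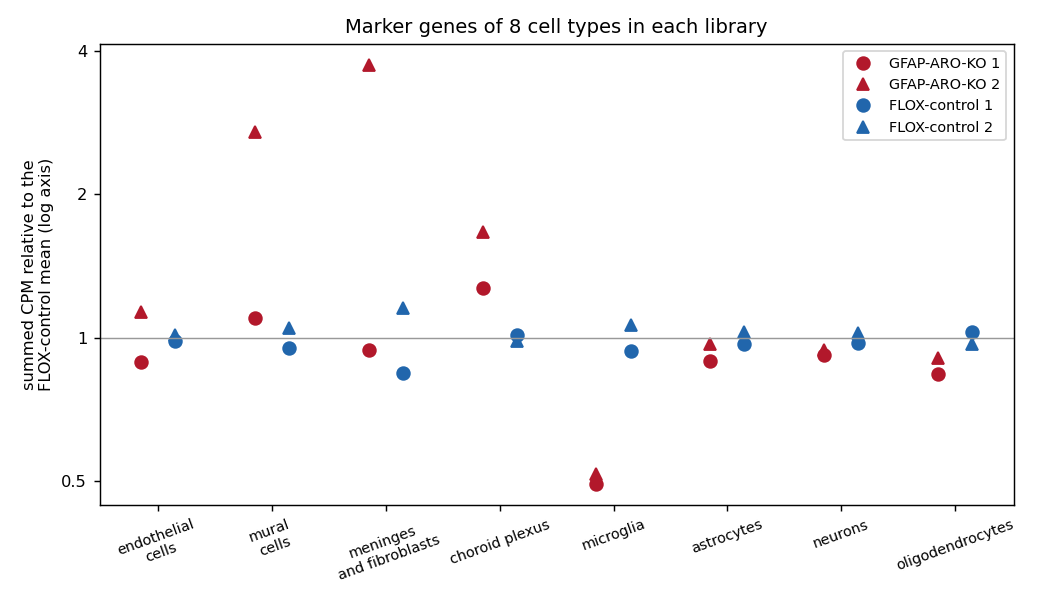
Summed CPM of the marker genes of 8 cell types in each library, divided by the mean of the FLOX-control libraries (log axis); each point is 1 library. Only the second GFAP-ARO-KO library is far above the controls in mural and meningeal markers, and both GFAP-ARO-KO libraries are near 0.5 in microglial markers.

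Set against FLOX-control, GFAP-ARO-KO hippocampus had more RNA of the lipid carrier Mfsd2a (3.01-fold), of the junction protein Pecam1 (2.07-fold) and of the endothelial surface protein Ly6c1 (1.85-fold), and less of the thyroid hormone carrier Slco1c1 (2.62-fold lower). Of the 40 tested genes 12 passed the threshold, an adjusted p under 0.05 by edgeR's quasi-likelihood test with Benjamini-Hochberg adjustment over all genes. That is 30% of the tested members, beside 20.4% of all 15011 tested genes. The 8 that rose were Mfsd2a, Apold1, Pecam1, Ly6c1, Nos3, Ocln, Ly6a and Slc2a1, or 20% of the tested members beside 9.39% of all genes. The 4 that fell were Slco1c1, Cav1, Ets1 and Bsg, or 10% beside 11% of all genes. A change of at least 2-fold past the threshold was seen in 4 members, 10% beside 6.78% of all genes. The median log2 fold change was 0.29 over the tested members and -0.000809 over all tested genes. The members' median rested on the second GFAP-ARO-KO library: it was -0.0532 without that library and 0.391 without the first. Without the first or the second FLOX-control library it was 0.219 and 0.212.

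**Figure D2:**
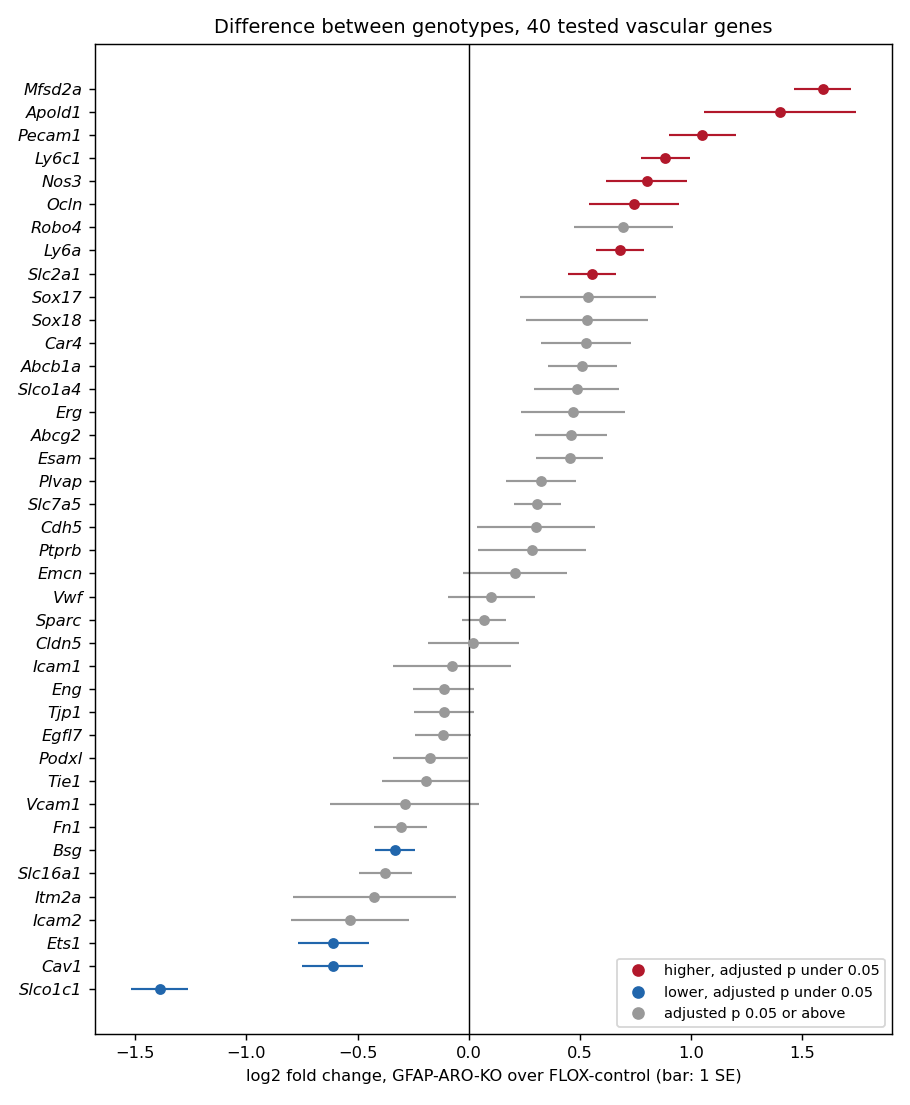
Log2 fold change of GFAP-ARO-KO over FLOX-control with 1 standard error for the 40 tested genes, from edgeR with 2 libraries per group. Mfsd2a at 1.59 and Slco1c1 at -1.39 lie at the ends, and 28 genes in grey did not pass the threshold.

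How many passed depended on the libraries. Pecam1, Ly6c1, Mfsd2a and Slco1c1 passed in all 13 alternatives run, with any single library left out included. With the first GFAP-ARO-KO library left out, 20 members passed (16 higher and 4 lower; 31.5% of all genes passed). With the second left out, 12 passed (6 higher and 6 lower; 18.1% of all genes), of which 8 were among the 12 of the full comparison. Only 6 passed without the first FLOX-control library (5.87% of all genes) and 4 without the second (5.29% of all genes). The libraries of the groups did not overlap for 25 of the 40 tested members. They overlapped for 15 members and for 5279 of all 15011 tested genes, a similar share. Both GFAP-ARO-KO libraries were above both FLOX-control libraries for 18 of the 40, 45% beside 32% of all genes, and below them for 7, 17.5% beside 32.8% of all genes.

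Most members were higher in the second GFAP-ARO-KO library than in the first, namely 36 of 40, or 90% beside 49.9% of all tested genes. The median log2 difference between these libraries was 0.34 over the members and -0.000773 over all genes. Between the FLOX-control libraries 23 of 40 members were higher in the second, with a median log2 difference of 0.01. The GFAP-ARO-KO libraries agreed in some members and not in others. Itm2a, an integral membrane protein of brain endothelium, had 14.8 and 33.6 CPM in GFAP-ARO-KO, against 31.5 and 33.0 CPM in FLOX-control. Vcam1 had 21.8 and 45.7 CPM in GFAP-ARO-KO, against 40.1 and 41.7 CPM in FLOX-control. In each of these genes the first GFAP-ARO-KO library was low, and the second was at or above the controls. The mural and meningeal sums were high in that same second library, and their part in these values was not tested.

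**Figure D3:**
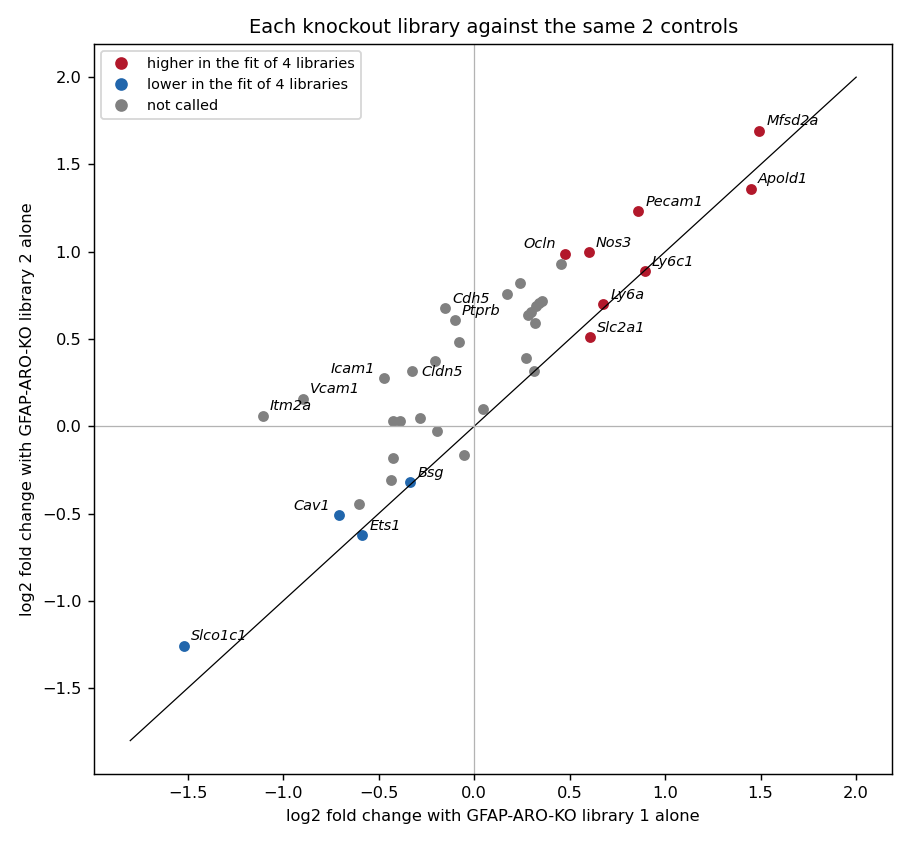
Log2 fold change against both FLOX-control libraries with the first GFAP-ARO-KO library alone (horizontal) and with the second alone (vertical); each point is 1 gene and the line marks equal values. Most points lie above the line; Mfsd2a, Pecam1, Ly6c1 and Slco1c1 are far from 0 on both axes, whereas Itm2a is at -1.11 with the first and 0.06 with the second.

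Among 7 genes of cell junctions 2 rose, 0 fell and 5 did not pass, beside 9.39% of all genes that rose and 11% that fell. The median log2 fold change of the 7 was 0.30, or -0.15 without the second GFAP-ARO-KO library. Pecam1 (chromosome 11, 106515531 to 106611942, minus strand, mm9), an adhesion protein of endothelial borders that platelets and some leukocytes also make, had 36.6 and 47.8 CPM in GFAP-ARO-KO, against 20.3 and 20.4 CPM in FLOX-control. Both GFAP-ARO-KO libraries were well above the nearly equal controls, and the gene rose by 1.05 ± 0.15 (log2 fold change ± SE; adjusted p = 0.00525). Ocln, the tight junction protein occludin, had 12.9 and 18.4 CPM in GFAP-ARO-KO, against 9.59 and 8.99 CPM in FLOX-control. Its groups did not overlap and it rose by 0.74 ± 0.20 on the log2 scale (adjusted p = 0.0389), but it did not pass without the second GFAP-ARO-KO library (0.0746), without either control (0.189 and 0.142 without the second and the first) or with limma-voom.

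Cldn5, the main claudin of brain endothelium, had 21.2 and 33.3 CPM in GFAP-ARO-KO, against 26.7 and 26.8 CPM in FLOX-control. Its knockout libraries lay on both sides of the controls, with a log2 fold change of 0.02 ± 0.21 (adjusted p = 0.955). Cdh5, the cadherin of endothelial adherens junctions, had the same arrangement, at 10.6 and 18.9 CPM in GFAP-ARO-KO, against 11.8 and 11.9 CPM in FLOX-control (adjusted p = 0.450). It rose without the first GFAP-ARO-KO library (log2 fold change 0.68, adjusted p = 0.00610) and was at -0.15 without the second. Tjp1, the scaffold ZO-1, was at 93.0 ± 15.5 CPM in GFAP-ARO-KO and 100.5 ± 8.73 CPM in FLOX-control (SD, n = 2 each). Esam, an adhesion protein of endothelial junctions, was above the controls in both GFAP-ARO-KO libraries without passing (log2 fold change 0.45 ± 0.15, adjusted p = 0.0690), and passed without the first GFAP-ARO-KO library (0.00915). Icam2, a constitutive endothelial adhesion molecule, was low, at 1.79 and 2.02 CPM in GFAP-ARO-KO, against 3.05 and 2.45 CPM in FLOX-control (adjusted p = 0.185).

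Of the 4 transcription factors, Ets1 alone passed, where 20.4% of all genes did. Ets1, an ETS factor that lymphocytes also make, had 8.60 and 8.44 CPM in GFAP-ARO-KO, against 12.1 and 13.95 CPM in FLOX-control. It fell by 0.61 ± 0.16 on the log2 scale (adjusted p = 0.0354), with an adjusted p of 0.0526 without the second GFAP-ARO-KO library, 0.122 without the first control and 0.267 without the second. The ETS factor gene Erg and the SOX factor genes Sox17 and Sox18, which help set endothelial identity, had log2 fold changes of 0.47 ± 0.23, 0.54 ± 0.31 and 0.53 ± 0.27 and did not pass. Their means in GFAP-ARO-KO were 4.44, 4.01 and 7.23 CPM, against 3.18, 2.73 and 4.97 CPM in FLOX-control. Sox17 passed without the first GFAP-ARO-KO library (log2 fold change 0.82, adjusted p = 0.0486).

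Endothelial surface and secreted proteins gave 4 rises and 0 falls among 12 tested genes, beside 9.39% and 11% of all genes, with 8 not passing. The median log2 fold change of the 12 was 0.25, or -0.07 without the second GFAP-ARO-KO library. Ly6c1, a lipid-anchored protein abundant on brain endothelium, had 44.8 and 45.0 CPM in GFAP-ARO-KO, against 24.6 and 24.1 CPM in FLOX-control. Replicates were close in both groups, and it rose by 0.88 ± 0.11 on the log2 scale (adjusted p = 0.00359). Ly6a, its relative known as Sca-1, had 42.04 and 43.1 CPM in GFAP-ARO-KO, against 26.6 and 26.5 CPM in FLOX-control. It rose by 0.68 ± 0.11 on the log2 scale (adjusted p = 0.00725), and missed the threshold without the first control (0.0593) or the second (0.0678). Both genes lie on chromosome 15 in a family of near copies. Only 69.4% of the 50-base windows of Ly6c1 exons and 87.2% of those of Ly6a occur once in the genome, so their level is uncertain; Ly6c2, the closest copy of Ly6c1, gave at most 1 read in a library.

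Nos3, the endothelial nitric oxide synthase, had 14.1 and 18.7 CPM in GFAP-ARO-KO, against 9.77 and 8.96 CPM in FLOX-control. It rose by 0.80 ± 0.18 on the log2 scale (adjusted p = 0.0227), with an adjusted p of 0.0933 without the first control and 0.143 without the second. Exons of Nos3 overlap those of Atg9b on the opposite strand, and Atg9b also rose, to 7.83 and 9.01 CPM in GFAP-ARO-KO, against 4.90 and 5.66 CPM in FLOX-control (log2 fold change 0.67, adjusted p = 0.0433). Whether the counting used strand is not known from the sources used here, so how reads from the overlapping stretch were assigned is uncertain. Apold1, a protein that endothelium switches on early after injury, had 11.8 and 11.2 CPM in GFAP-ARO-KO, against 6.12 and 2.54 CPM in FLOX-control. Here the knockouts were close to each other and the controls far apart. It rose by 1.40 ± 0.34 on the log2 scale (adjusted p = 0.0324), and by 0.90 without the second control (adjusted p = 0.0890) against 2.18 without the first (0.00778). Without the first or the second GFAP-ARO-KO library its adjusted p was 0.201 and 0.137.

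The other 8 surface and secreted genes did not pass. Tie1 is an orphan receptor tyrosine kinase of endothelium, Eng a co-receptor for TGF-beta ligands, and Ptprb a phosphatase that restrains the angiopoietin receptor. Emcn and Podxl encode sialomucins of the vessel surface, and Egfl7 a secreted vessel protein. Robo4, a guidance receptor of endothelium, had the largest positive log2 fold change of the 8, with 7.43 and 10.4 CPM in GFAP-ARO-KO, against 5.94 and 4.99 CPM in FLOX-control (log2 fold change 0.70 ± 0.22, adjusted p = 0.0651). Robo4 passed without the first GFAP-ARO-KO library (adjusted p = 0.00468), as did Ptprb (log2 fold change 0.61, adjusted p = 0.0100). Itm2a passed as lower without the second (log2 fold change -1.11, adjusted p = 0.00178). Tie1, Eng, Podxl and Egfl7 had log2 fold changes between -0.19 and -0.11, with adjusted p of at least 0.496, and Emcn was at 0.21 (adjusted p = 0.554). Exons of Eng overlap Ak1 and Fpgs, and those of Egfl7 overlap Agpat2 and Mir126.

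**Figure D4:**
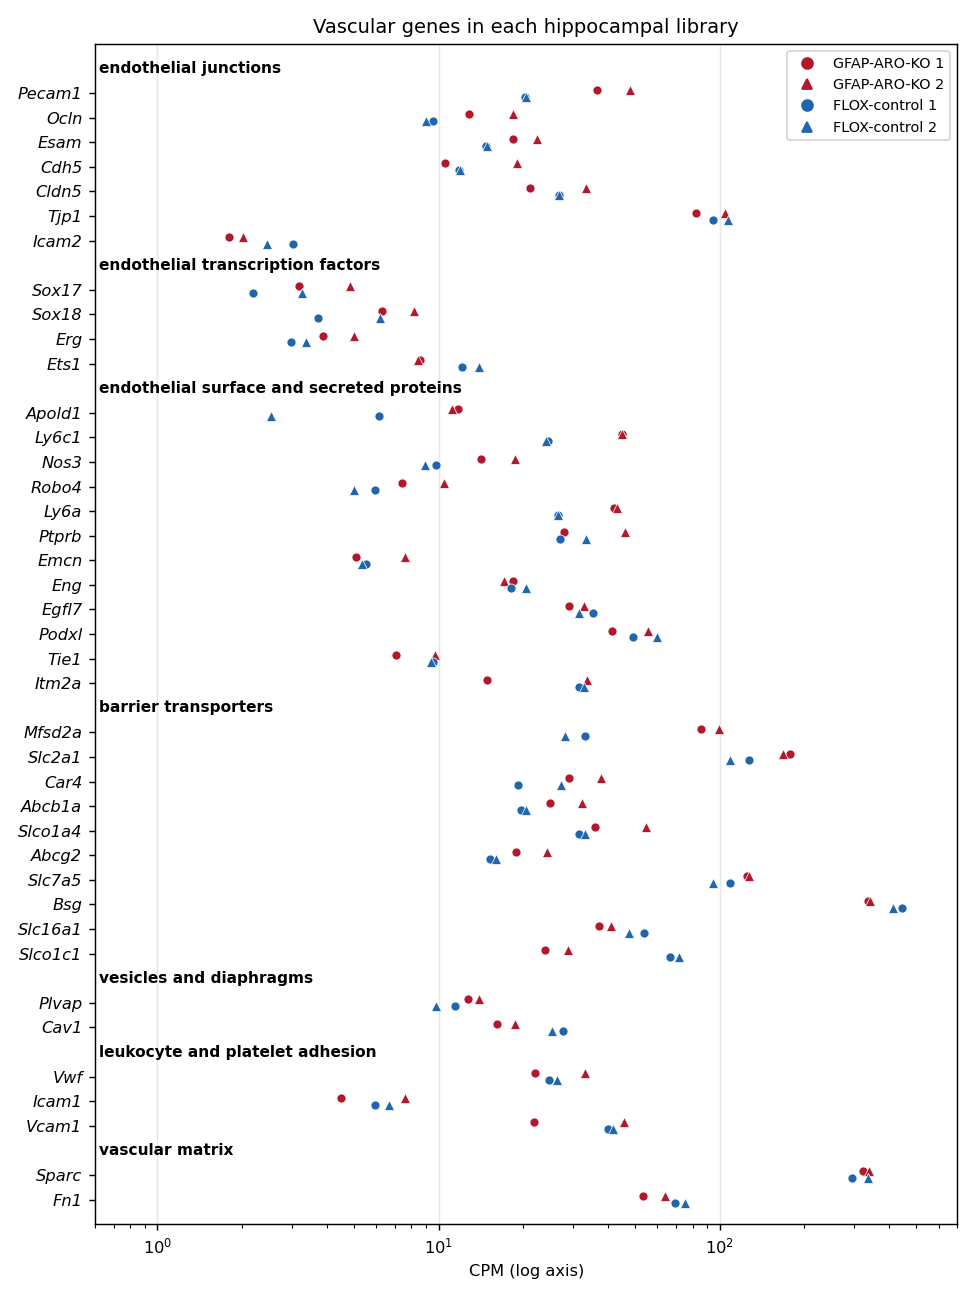
CPM (log axis) of the 40 tested genes by role, with GFAP-ARO-KO in red and FLOX-control in blue; circles are replicate 1 and triangles replicate 2. Mfsd2a, Pecam1, Ly6c1 and Slco1c1 show a clear gap between groups, and Itm2a, Vcam1 and Cdh5 show wide red pairs around narrow blue ones.

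Among the 40 tested members, barrier transporters had the largest log2 fold changes in either direction. Of 10 genes 2 rose, 2 fell and 6 did not pass, beside 9.39% of all genes that rose and 11% that fell. The median log2 fold change of the 10 was 0.47, and 0.30 without the second GFAP-ARO-KO library. The groups overlapped in none of the 10. Both GFAP-ARO-KO libraries were above both controls for 7 and below them for 3, beside 32% and 32.8% of all genes. Upstream sequence is shown for the 3 of the 4 called transporters that have an entry in the RefSeq promoter table, as the genes whose level differed. The 250 bases before each start come from RefSeq (build GRCm38.p6), run 5′ to 3′ on the gene's strand, and match mm9 exactly at the positions given. Capitals mark ACGTG, the core that HIF binds, and GGAAGT, an ETS motif, on either strand; 2 more motifs, ACAAT of SOX factors and AGAACA of the glucocorticoid receptor, were searched and are in none of the 3.

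Mfsd2a (mm9 chr4:122638432-122638681, minus strand): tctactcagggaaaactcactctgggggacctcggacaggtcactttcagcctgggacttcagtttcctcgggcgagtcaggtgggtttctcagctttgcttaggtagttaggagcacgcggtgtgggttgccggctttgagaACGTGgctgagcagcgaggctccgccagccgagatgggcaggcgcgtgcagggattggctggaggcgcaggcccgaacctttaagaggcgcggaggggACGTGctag
Slc2a1 (mm9 chr4:118781100-118781349, plus strand): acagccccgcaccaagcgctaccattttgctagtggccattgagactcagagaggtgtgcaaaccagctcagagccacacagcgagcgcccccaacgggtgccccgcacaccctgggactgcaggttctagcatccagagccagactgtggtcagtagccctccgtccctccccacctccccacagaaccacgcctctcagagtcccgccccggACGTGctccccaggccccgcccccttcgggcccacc
Slco1c1 (mm9 chr6:141472625-141472874, plus strand): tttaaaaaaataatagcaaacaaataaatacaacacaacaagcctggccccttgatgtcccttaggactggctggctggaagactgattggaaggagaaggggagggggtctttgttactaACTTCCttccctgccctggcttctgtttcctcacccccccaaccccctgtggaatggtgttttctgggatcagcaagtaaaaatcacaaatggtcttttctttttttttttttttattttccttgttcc

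The start of Mfsd2a holds ACGTG at 2 places and that of Slc2a1 at 1, and the start of Slco1c1 holds GGAAGT at 1, in reverse as ACTTCC. Over the 25 members with an entry, at 34 starts, ACGTG was in 14.7% of the windows beside 16.6% of all 32851 windows of the table, and GGAAGT in 23.5% beside 19.7%. For ACAAT the shares were 17.6% and 27.7%, and for AGAACA 8.82% and 16.1%. These motifs were chosen with the expression values known, and a match is no sign of binding.

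Mfsd2a (chromosome 4, 122624093 to 122638431, minus strand, mm9) carries lysophospholipids with omega-3 fatty acids into brain and in mice holds back vesicle transport across endothelium. It had 85.9 and 99.4 CPM in GFAP-ARO-KO, against 33.3 and 28.2 CPM in FLOX-control, and rose by 1.59 ± 0.13 on the log2 scale (adjusted p = 0.00106). Over the alternatives its log2 fold change ran from 1.47 to 1.73. Slco1c1 (chromosome 6, 141472907 to 141518241, plus strand, mm9), a carrier of thyroxine in brain vessels that astrocytes also make, had 23.9 and 28.9 CPM in GFAP-ARO-KO, against 66.3 and 71.8 CPM in FLOX-control. The groups were far apart, and the gene fell by 1.39 ± 0.13 on the log2 scale (adjusted p = 0.00133), with log2 values from -1.52 to -1.26 over the alternatives.

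Slc2a1 (chromosome 4, 118781316 to 118809935, plus strand, mm9), the glucose carrier GLUT1, had 178 and 168 CPM in GFAP-ARO-KO, against 127 and 109 CPM in FLOX-control. It rose by 0.55 ± 0.11 on the log2 scale (adjusted p = 0.0142) and did not pass without the second control (0.121). Exons of Slc2a1 overlap those of Gm12868 on the opposite strand. Gm12868 was not among the counted genes, and whether its reads were counted in Slc2a1 is not known. Bsg, also called basigin or CD147, a chaperone of lactate carriers made by many cell types, had 337 and 343 CPM in GFAP-ARO-KO, against 443 and 413 CPM in FLOX-control. Its fall of 0.33 ± 0.09 on the log2 scale was small but larger than the spread between libraries (adjusted p = 0.0389). It did not pass without the second GFAP-ARO-KO library (0.0684), the first control (0.263) or the second (0.135). Slc16a1, the lactate carrier MCT1 that Bsg escorts, had 37.2 and 41.0 CPM in GFAP-ARO-KO, against 53.7 and 47.6 CPM in FLOX-control, and missed the threshold (log2 fold change -0.37 ± 0.12, adjusted p = 0.0599), though it passed without the second GFAP-ARO-KO library (0.0444).

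The 5 genes left in this group, Abcb1a, Abcg2, Slco1a4, Slc7a5 and the capillary carbonic anhydrase gene Car4, were above the controls in both GFAP-ARO-KO libraries without passing. Abcb1a, the efflux pump P-glycoprotein, had 24.8 and 32.3 CPM in GFAP-ARO-KO, against 19.6 and 20.4 CPM in FLOX-control (log2 fold change 0.51 ± 0.15, adjusted p = 0.0542). Abcb1a passed in 5 of 13 alternatives, DESeq2 and the fit without the first GFAP-ARO-KO library among them. Of its 50-base windows 79.8% occur once in the genome, and its near copy Abcb1b was at 0.45 on the log2 scale (adjusted p = 0.187). Abcg2, the second main efflux pump, and Slco1a4, a carrier of organic anions, had log2 fold changes of 0.46 ± 0.16 and 0.49 ± 0.19. Both passed without the first GFAP-ARO-KO library (adjusted p = 0.00581 and 6.22e-04). Slc7a5, the large neutral amino acid carrier LAT1, and Car4 had log2 fold changes of 0.31 ± 0.11 and 0.53 ± 0.20, with adjusted p of 0.0759 and 0.109.

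Scaled per kilobase of exon in the GENCODE vM1 annotation, which need not be the one used in the counting, Bsg was the most abundant member, at 194 CPM per kilobase in GFAP-ARO-KO and 244 in FLOX-control. Sparc followed at 98.2 CPM per kilobase in GFAP-ARO-KO and 93.7 in FLOX-control, and Slc2a1 at 60.6 in GFAP-ARO-KO and 41.3 in FLOX-control. Mfsd2a stood at 41.2 CPM per kilobase in GFAP-ARO-KO and 13.7 in FLOX-control, and Slco1c1 at 9.71 in GFAP-ARO-KO and 25.4 in FLOX-control. The order of these carriers by level thus differed between the groups, with Slco1c1 above Mfsd2a in FLOX-control and below it in GFAP-ARO-KO.

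Of the pair of genes of vesicles and diaphragms Cav1 fell and Plvap did not pass. Cav1, which builds caveolae and is made by many cells of the vessel wall, had 16.1 and 18.6 CPM in GFAP-ARO-KO, against 27.7 and 25.3 CPM in FLOX-control. It fell by 0.61 ± 0.14 on the log2 scale (adjusted p = 0.0215), a call lost with the first control left out (0.164) and with the second left out (0.0974). Plvap, the diaphragm protein of leaky endothelium, is absent from most mature brain capillaries and kept in choroid plexus. It had 12.8 and 13.97 CPM in GFAP-ARO-KO, against 11.5 and 9.82 CPM in FLOX-control (log2 fold change 0.33 ± 0.16, adjusted p = 0.180). Markers of choroid plexus summed to 53.9 and 70.5 CPM in GFAP-ARO-KO, against 43.0 and 41.8 CPM in FLOX-control, and 2 of 6 tested rose; their part in the level of Plvap was not tested.

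None of the 3 tested genes of leukocyte and platelet adhesion passed by edgeR's test, where 20.4% of all genes did. At an unadjusted p under 0.05 the count was also 0, and DESeq2 and limma-voom called 0 and 0. Icam1, an inducible ligand of leukocyte integrins, had 4.50 and 7.62 CPM in GFAP-ARO-KO, against 5.94 and 6.64 CPM in FLOX-control (log2 fold change -0.07 ± 0.27). Vcam1, another inducible integrin ligand, was at -0.29 ± 0.33 on the log2 scale (adjusted p = 0.580), and passed as lower without the second GFAP-ARO-KO library (-0.90, adjusted p = 0.00293). Vwf, the clotting protein stored in Weibel-Palade bodies, was at 27.6 ± 7.87 CPM in GFAP-ARO-KO and 25.6 ± 1.09 CPM in FLOX-control (SD, n = 2 each), with adjusted p = 0.740, and passed as higher without the first GFAP-ARO-KO library (log2 fold change 0.37, adjusted p = 0.0460).

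Sele, which encodes E-selectin of activated endothelium, gave 2 and 0 reads in GFAP-ARO-KO, against 6 and 21 reads in FLOX-control. The ratio of summed reads, scaled by library size, was 0.0774 with an exact 95% counting interval of 0.00892 to 0.308, which covers counting error only. The FLOX-control libraries differed from each other as well, so this compares 4 libraries and does not test the genotype. Selp, P-selectin, gave 0 and 5 reads in GFAP-ARO-KO, against 2 and 3 reads in FLOX-control (ratio 1.05, interval 0.241 to 4.54). A count of 0 allows up to 0.0855 CPM in the first GFAP-ARO-KO library and 0.106 CPM in the second. At this depth a difference in Selp within its interval of 0.241 to 4.54, which covers counting error only, was not detectable.

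The 2 genes of vascular matrix did not pass. Fn1, fibronectin, had 53.4 and 63.8 CPM in GFAP-ARO-KO, against 69.3 and 75.4 CPM in FLOX-control (log2 fold change -0.31 ± 0.12, adjusted p = 0.111), and passed without the second GFAP-ARO-KO library (0.0349). Sparc, a matrix protein of vessels that astrocytes and microglia also make, was at 331 ± 10.4 CPM in GFAP-ARO-KO and 315 ± 28.2 CPM in FLOX-control (SD, n = 2 each; adjusted p = 0.661).

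Further genes of the same biology, 93 in 6 lists, gave 9 rises and 14 falls among 89 tested, with a median log2 fold change of -0.01. The rises were 10.1% beside 9.39% of all genes, near the background, and the falls 15.7% beside 11%. Without the first GFAP-ARO-KO library 24 rose and 17 fell, 45.6% in all beside 31.5% of all genes; without the second, 9 rose and 19 fell, 31.1% beside 18.1%. Leaving out the first control gave 2 rises and 7 falls, 10.1% beside 5.87% of all genes, and leaving out the second gave 1 rise and 8 falls, 10% beside 5.29%. Of 20 other endothelial genes 4 rose and 3 fell, 20% and 15% beside 9.39% and 11% of all genes. Flt1, the VEGF receptor VEGFR1, fell by 0.86 ± 0.12 on the log2 scale (adjusted p = 0.00491), with 21.1 and 23.7 CPM in GFAP-ARO-KO, against 39.2 and 41.9 CPM in FLOX-control. Eltd1, an adhesion G protein-coupled receptor of endothelium, rose by 0.97 ± 0.14 on the log2 scale (adjusted p = 0.00502), with 29.7 and 33.7 CPM in GFAP-ARO-KO, against 17.3 and 14.99 CPM in FLOX-control. General endothelial genes thus passed in both directions in the same libraries. The other junction genes gave 8.33% rises and 8.33% falls. Of 12 tested junction genes Lsr rose (log2 fold change 0.93 ± 0.26, adjusted p = 0.0417) and Jam3 fell (-0.56 ± 0.12, 0.0181), and neither passed with 1 control library left out. Lsr also missed the threshold with limma-voom (adjusted p = 0.0581) and without the second GFAP-ARO-KO library (log2 fold change 0.56, adjusted p = 0.0748).

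Among 19 other transporters and receptors 2 rose and 4 fell, 10.5% and 21.1% beside 9.39% and 11% of all genes. Slc38a5, a glutamine carrier of venous brain endothelium, fell by 1.98 ± 0.28 on the log2 scale (adjusted p = 0.00502), with 0.997 and 1.06 CPM in GFAP-ARO-KO, against 4.48 and 3.61 CPM in FLOX-control. Slc39a10, a zinc importer of many cell types, fell by 1.31 ± 0.11 on the log2 scale (adjusted p = 0.00123). Of 17 genes of the Wnt programme that maintains the barrier 0 rose by edgeR's test and 2 fell, and these falls were 11.8% beside 11% of all genes. DESeq2 called 1 as higher and limma-voom 0, an unadjusted p under 0.05 was found for 3 that were higher and 4 that were lower, and without the first GFAP-ARO-KO library 4 rose. Ndp, which encodes norrin, a Frizzled-4 ligand made by astrocytes, fell by 1.57 ± 0.19 on the log2 scale (adjusted p = 0.00332), with 7.04 and 4.96 CPM in GFAP-ARO-KO, against 17.9 and 18.1 CPM in FLOX-control. Wnt7b fell by 0.77 ± 0.18 on the log2 scale (adjusted p = 0.0254; 0.0943 without the second GFAP-ARO-KO library and 0.124 without the first control). The receptor and target genes Fzd4, Gpr124, Reck, Lef1, Axin2 and Apcdd1 did not pass. On the log2 scale Fzd4 was at 0.77 ± 0.25, Reck at 0.69 ± 0.27 and Lef1 at -0.57 ± 0.28. Gpr124 was at 0.27 ± 0.26, Apcdd1 at 0.21 ± 0.17 and Axin2 at 0.19 ± 0.13.

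Of 11 tested genes of leukocyte adhesion outside the members 1 rose and 3 fell, 9.09% and 27.3% beside 9.39% and 11% of all genes. Selplg, the selectin ligand PSGL-1 that microglia and leukocytes make, fell by 1.61 ± 0.16 on the log2 scale (adjusted p = 0.00161), and Cd99l2 fell by 0.54 ± 0.10 on the log2 scale (adjusted p = 0.0122, but 0.0924 and 0.0642 with the first or second control left out). Microglial markers were lower in the same libraries, as given above. Of 10 arterial and venous markers 1 rose and 1 fell, 10% each beside 9.39% and 11% of all genes. Unc5b, a netrin receptor of arterial endothelium and of neurons, fell by 1.31 ± 0.12 on the log2 scale (adjusted p = 0.00146), and Sema3g, a semaphorin of arteries, rose by 1.03 ± 0.26 on the log2 scale (adjusted p = 0.0306, but 0.152 and 0.111 with the first or second control left out).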

How the data were processed

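The authors deposited raw read counts per gene symbol, 1 file for each library, with 22609 symbols and, at the end, 5 tallies of unassigned reads. Per the labels' protocols, total RNA libraries of hippocampus were read as 50 bp single ends; per the submitters' processing notes, bcl2fastq, TopHat2 2.0.8b on mm9 and HTSeq were used. Strand setting and gene annotation are not stated in the sources used here. The tallies held 45.2% to 47.3% of entries and were left out.

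CPM was computed with TMM factors (0.984 to 1.01). Genes passing filterByExpr (minimum count 10, total 15) were tested with edgeR 4.0.16 under R 4.3.3 (quasi-likelihood glmQLFit, robust=TRUE, legacy=FALSE, then glmQLFTest), no covariate, over all 15011 genes. Each SE is the size of the log2 fold change divided by the root of F. Groups came from the sample titles. The design text speaks of duplicate runs, and nothing says that the libraries came from separate animals, so p-values measure the spread between these libraries, which may be technical; counts differed beyond counting noise within each group (chi-square per degree of freedom 22.9 in GFAP-ARO-KO and 12.4 in FLOX-control).

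Every member is named, and of each further list the 2 genes with the smallest p; others, such as Fzd4, were named after their values were seen. Members, lists and motifs were chosen with earlier results of these data known. Positions, exon lengths and unique windows (exact matches on both strands) come from NCBIM37, the assembly of mm9, and GENCODE vM1. Alternatives are given in the closing section.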

Additional observations from a re-analysis of the deposited data

How the results depend on the processing

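Over the 9 alternatives that kept all 4 libraries (RLE or upper-quartile factors, no or a stricter filter on low counts, DESeq2, limma-voom, legacy or non-robust estimation, and the replicate number as a block), 7 to 10 members were higher and 3 or 4 lower in GFAP-ARO-KO, and 351 of 360 log2 fold changes kept their direction and their side of the threshold. With the replicate block 10 were higher and 3 lower: Abcb1a and Car4 then passed and Bsg did not (adjusted p = 0.0537). Within-group differences of same-numbered libraries did not go together (r = -0.0165 over 15011 genes). The sample titles give no pairing beyond the number, and a correlation over all genes cannot exclude a shared batch. The sign of Cldn5 changed to -0.0272 with limma-voom and -0.00636 with the block.

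With 1 library left out, the group then held by 1 library is assumed to vary like the other, and 3 to 16 members were higher and 1 to 6 lower; the cause was not tested. Log2 fold changes that changed sign ran from -0.32 to 0.32 for Cldn5, -0.15 to 0.68 for Cdh5, -0.0788 to 0.48 for Emcn, -0.47 to 0.28 for Icam1, -1.11 to 0.0613 for Itm2a, -0.39 to 0.0287 for Podxl, -0.10 to 0.61 for Ptprb, -0.0136 to 0.16 for Sparc, -0.42 to 0.0314 for Tie1, -0.28 to 0.0492 for Tjp1, -0.90 to 0.16 for Vcam1 and -0.21 to 0.37 for Vwf. With 2 libraries per group no sample could be tested as an outlier. Sele and Selp alone had too few reads to be tested with all 4 libraries. Other members with low counts had wide errors, such as Sox17 with 73 to 136 reads and an SE of 0.31.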
